A study of Mus musculus with 6 samples.

Results

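DNA replication and mitosis genes were examined in sorted cells from the bladders of male FVB/N mice, 2 days after birth. The list holds 40 genes, 15 of S phase and 25 of mitosis, and every probe set was taken whose annotation gives 1 of these symbols and no other. That rule found 88 probe sets of 39 genes, among 18193 genes named on the array. Ccnb1, the main mitotic cyclin, had no such probe set and is not analysed here. Another 2 probe sets name Tyms or Foxm1 beside other symbols and were left out. The mice carried both transgenes, EGFP driven by the promoter of smooth muscle gamma actin (SMGA, endogenous gene Actg2) and EYFP driven by that of smooth muscle alpha actin (SMAA, Acta2). Sorting gave EGFP+EYFP+ cells, with both reporters (3 arrays), and EGFP+EYFP- cells, with the gamma actin reporter alone (3 arrays). The labels assign both to the detrusor, the muscle of the bladder wall. Samples were not pooled. Whether the 3 arrays within a group represent different mice is not given, and the spread behind each p-value is that of these samples and may be technical.

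Dividing cells copy their DNA in S phase and separate it in mitosis, and each phase has its own group of periodic transcripts. S phase genes are switched on late in G1, largely by E2F transcription factors. Mitotic genes follow in G2 through CHR elements (cell cycle genes homology regions), which bind the MuvB complex with B-MYB and FOXM1, together with CCAAT boxes, which bind NF-Y. The bladder wall of newborn mice is still growing, and smooth muscle cells can divide while they hold contractile proteins, so transcripts of both phases can be found there.

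Promoter windows of 6 members are shown because the elements in them differ in frequency between the 2 phases. Top2a, Ccnb2, Cks2 and Rrm2 are members whose signal rose in EGFP+EYFP+ cells, Mki67 is the member whose fold change was nearest to 0, and Mcm6 carries E2F words. Sequences are from RefSeq, build GRCm38.p6, and run 5′ to 3′ along the gene from 250 bases before the start site to 30 bases after it. Capitals mark the words searched on both strands, TTTGAA or TTCGAA for CHR, CCAAT for the CCAAT box, and TTTCCCGC, TTTCGCGC, TTTGCCGC or TTTGGCGC for E2F. Top2a lies at chr11:99024160-99024439 (minus strand), Ccnb2 at chr9:70421525-70421804 (minus strand) and Cks2 at chr13:51644982-51645261 (plus strand). Mki67 lies at chr7:135716350-135716629 (minus strand), Rrm2 at chr12:24708004-24708283 (plus strand) and Mcm6 at chr1:128359676-128359955 (minus strand).
Top2a: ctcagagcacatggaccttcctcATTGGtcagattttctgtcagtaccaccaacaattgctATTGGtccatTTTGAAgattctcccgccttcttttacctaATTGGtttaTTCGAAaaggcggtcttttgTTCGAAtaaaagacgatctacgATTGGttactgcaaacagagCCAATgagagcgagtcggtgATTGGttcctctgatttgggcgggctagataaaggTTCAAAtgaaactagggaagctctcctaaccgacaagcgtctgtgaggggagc
Ccnb2: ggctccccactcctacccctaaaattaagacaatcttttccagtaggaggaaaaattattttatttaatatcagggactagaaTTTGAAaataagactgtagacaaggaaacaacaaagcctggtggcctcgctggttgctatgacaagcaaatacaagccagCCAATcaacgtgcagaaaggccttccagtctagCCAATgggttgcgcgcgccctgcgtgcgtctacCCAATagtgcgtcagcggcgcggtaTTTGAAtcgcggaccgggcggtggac
Cks2: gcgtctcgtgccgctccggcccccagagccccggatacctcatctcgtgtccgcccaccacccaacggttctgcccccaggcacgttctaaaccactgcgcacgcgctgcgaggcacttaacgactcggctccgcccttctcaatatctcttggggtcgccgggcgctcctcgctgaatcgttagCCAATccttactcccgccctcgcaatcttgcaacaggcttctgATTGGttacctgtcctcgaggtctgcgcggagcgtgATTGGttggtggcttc
Mki67: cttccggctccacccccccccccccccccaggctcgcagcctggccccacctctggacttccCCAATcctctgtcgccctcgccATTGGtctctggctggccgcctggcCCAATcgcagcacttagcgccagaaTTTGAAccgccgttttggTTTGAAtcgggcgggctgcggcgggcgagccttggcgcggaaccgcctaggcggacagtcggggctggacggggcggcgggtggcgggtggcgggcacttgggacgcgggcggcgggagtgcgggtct
Rrm2: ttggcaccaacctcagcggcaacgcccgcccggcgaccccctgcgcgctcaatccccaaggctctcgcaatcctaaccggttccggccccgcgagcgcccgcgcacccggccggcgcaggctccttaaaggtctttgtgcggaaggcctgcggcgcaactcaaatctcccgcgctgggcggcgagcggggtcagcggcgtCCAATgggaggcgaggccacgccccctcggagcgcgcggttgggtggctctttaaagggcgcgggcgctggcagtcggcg
Mcm6: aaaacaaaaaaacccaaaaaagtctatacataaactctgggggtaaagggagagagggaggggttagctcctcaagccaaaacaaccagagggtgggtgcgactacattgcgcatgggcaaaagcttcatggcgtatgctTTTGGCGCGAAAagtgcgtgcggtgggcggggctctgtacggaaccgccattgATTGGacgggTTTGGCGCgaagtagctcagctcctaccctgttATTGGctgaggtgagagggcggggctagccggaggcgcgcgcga

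Over the full windows, which end 50 bases after the start, 32 members matched the RefSeq table with 34 promoters, Ccnb1 among them, and 8 members had no entry. CHR words stood in 15 of 21 promoters of mitotic members (71.4%) and in 2 of 13 promoters of S phase members (15.4%), against 19.2% of all 32851 promoters. E2F words showed the opposite split, with 1 of 21 mitotic (4.8%) and 6 of 13 S phase promoters (46.2%), against 2.3% of all promoters. CCAAT boxes stood in 18 of 21 mitotic (85.7%) and 9 of 13 S phase promoters (69.2%), against 37.4% of all. All 15 mitotic promoters with a CHR word held a CCAAT box too. The 2 windows of Prc1 overlap and share 1 CHR and 1 CCAAT site, so the 15 promoters belong to 14 of 20 genes. All members together have 94 sites that are distinct in start or strand. Of the 21 distinct CHR sites in mitotic promoters, 13 began no farther than 60 bases before a start or after it. In Mcm7, 1 CCAAT box overlapped an E2F word. E2F words on opposite strands overlapped each other in Mcm5 and Mcm6, as did CCAAT boxes in Ube2c, and were counted apart. The windows of members had a median GC content of 58.8%, against 52.7% over all promoters, and no test was made of these shares. The CHR matches of Top2a begin at -179, -140, -120 and -23 relative to the start. Ccnb2 has CHR matches at -167 and 5. Cks2 and Rrm2 hold CCAAT boxes and none of the other words, and the window of Ccne1 holds none of the words. Matches are a description of letters, not sites shown to be bound.

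**Figure D1:**
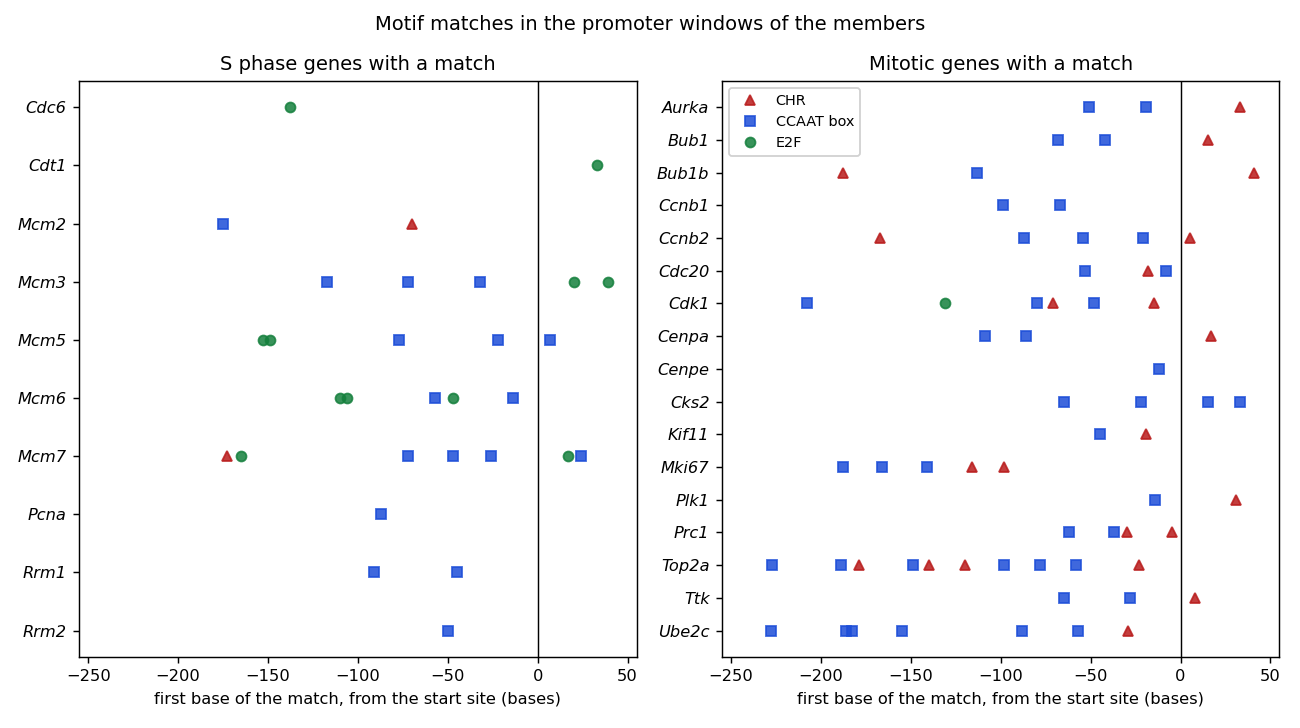
Position of each motif match in the promoter windows of S phase members (left) and mitotic members (right) that have a match, as the first base of the match in bases from the start site. Triangles are CHR words, squares CCAAT boxes and circles E2F words. CHR words appear for 14 mitotic genes and 2 S phase genes, E2F words for 6 S phase genes and 1 mitotic gene.

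Arrays of a group correlated at r = 0.935 to 0.948 (EGFP+EYFP+) and 0.950 to 0.956 (EGFP+EYFP-) across probe sets, and arrays of different groups at 0.921 to 0.942. Actg2 signal was 7404, 13959 and 10423 in EGFP+EYFP+ arrays, against 68165, 60830 and 51399 in EGFP+EYFP- arrays. Acta2, whose promoter drives the EYFP reporter, was 58281, 71648 and 49474 in EGFP+EYFP+ arrays, against 67696, 67707 and 51633 in EGFP+EYFP- arrays. Of 13464 genes tested, 857 passed an adjusted p of 0.05 (6.37%, limma with Benjamini-Hochberg adjustment over all genes), 267 of them higher and 590 lower in EGFP+EYFP+ cells.

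Of the replication and mitosis genes, 6 rose in EGFP+EYFP+ relative to EGFP+EYFP- cells and the others did not pass, though their fold changes lay on the same side. Top2a, Cks2, Ccnb2 and Kif20a of the mitotic genes and Rrm2 and Ccne1 of the S phase genes rose, between 1.65-fold and 2.22-fold. Of these 6 calls, 4 rest on probe sets whose suffix marks probes common to several transcripts, with suffix a for Top2a and Kif20a (as a rule transcripts of the same gene) and suffix x for Rrm2 and Ccne1 (also other genes). All 39 measured members were above the filter on dim genes, 6 rose (15.4%), none fell, and 33 did not pass. Over all genes tested, 1.98% rose and 4.38% fell. Fold changes here and below are EGFP+EYFP+ over EGFP+EYFP- cells on the scale of log2(signal + 25.042). Unless another probe set is named, the values and overlap given for a gene are those of its brightest probe set. At an unadjusted limma p under 0.05, 21 members were higher and none lower. Of all 13464 genes tested, 2364 had such a p in either direction. All 39 had a fold change above 0, which held for 51.8% of all genes tested, and their median log2 fold change was 0.67, against 0.02 over all genes. The 3 EGFP+EYFP+ values lay above the 3 EGFP+EYFP- values for 20 of the 39 members, where 10.5% of all genes did so. In bulk RNA of this kind, a larger share of dividing cells and more of these transcripts per dividing cell cannot be told apart.

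The number of members that passed moved with single arrays. No member passed without EGFP+EYFP+ array 1 or without EGFP+EYFP- array 2, and 2 passed without EGFP+EYFP- array 1 (Rrm2, Top2a) or without EGFP+EYFP- array 3 (Ccnb2, Kif20a). Without EGFP+EYFP+ array 2, 4 passed, and without EGFP+EYFP+ array 3, 7. The median log2 fold change of the members stayed between 0.59 and 0.70 when any 1 array was left out, with 36 to 39 members above 0 (38 or 39 were tested). In both fits with no call, 15 members had an unadjusted p under 0.05 by limma, and the lowest adjusted p was 0.0632 without EGFP+EYFP+ array 1 and 0.0699 without EGFP+EYFP- array 2. With no variance trend in the limma model 0 passed (18 at an unadjusted p under 0.05), with arrays centred on their medians 2, and with array weights 11. For the counts at an unadjusted p in these fits, the share over all genes is not given here.

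**Figure D2:**
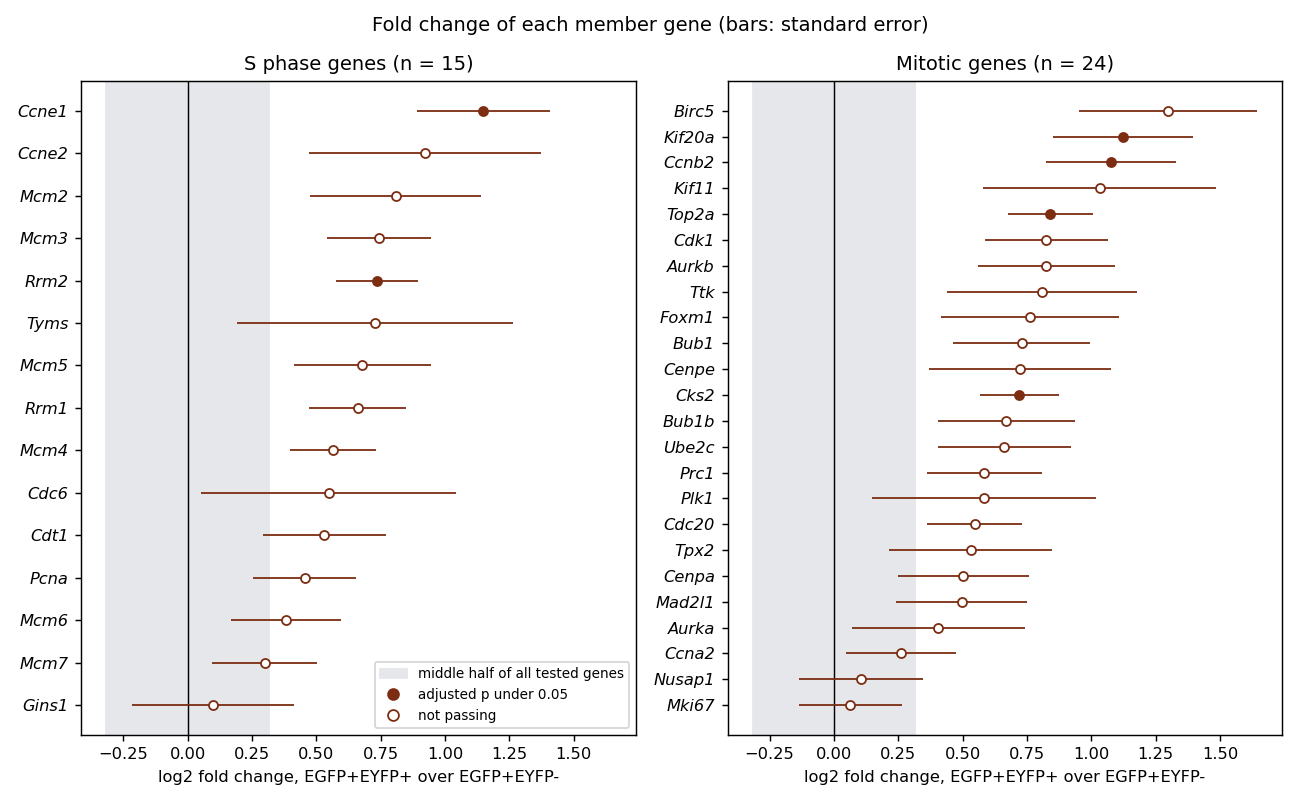
Log2 fold change of EGFP+EYFP+ over EGFP+EYFP- cells for each measured member, with the standard error of the limma fit as bars, S phase genes on the left and mitotic genes on the right. Filled points passed an adjusted p of 0.05, and the grey band spans the 25th to 75th percentile of all genes tested (-0.32 to 0.32). Every point lies above 0, from 0.06 for Mki67 to 1.30 for Birc5.

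Mitotic members held 4 of the 6 genes that rose, among 24 measured (16.7%, against 1.98% of all genes tested), with a median log2 fold change of 0.69. Top2a encodes topoisomerase II alpha, which untangles sister chromatids. Its signal was 23687, 22993 and 19722 in EGFP+EYFP+ arrays, against 13892, 11257 and 11934 in EGFP+EYFP- arrays. The groups did not overlap, and limma put the log2 fold change at 0.84 with an SE of 0.17, at an adjusted p of 0.0134.

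Cks2, a small subunit of cyclin-dependent kinases, had 28898, 23532 and 25687 in EGFP+EYFP+ arrays, against 15447, 15002 and 16832 in EGFP+EYFP- arrays. The arrays within each group lay close together, and on the log2 scale the difference was 0.72, with SE 0.15 and adjusted p = 0.0192 by limma. Its other probe set ran the same way with 0.84 but did not pass over all probe sets (adjusted p = 0.0969).

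Ccnb2, a B-type cyclin that partners CDK1 at mitotic entry, had 8542, 6387 and 6662 in EGFP+EYFP+ arrays, against 3451, 2601 and 4271 in EGFP+EYFP- arrays. The fold change was 2.11 on the fitted scale, with a difference of 1.08 in log2 (SE 0.25, adjusted p = 0.0314, limma). Kif20a, a kinesin of the central spindle and cytokinesis, had 3885, 4640 and 3662 in EGFP+EYFP+ arrays, against 1667, 1540 and 2438 in EGFP+EYFP- arrays. Kif20a differed by 1.12 on the log2 scale, with SE 0.27 and adjusted p = 0.0362 by limma, again with no overlap between the groups.

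Birc5 (survivin), a member of the chromosomal passenger complex, had the highest fold change of all members and narrowly missed the threshold. Its signal was 2712, 4532 and 2708 in EGFP+EYFP+ arrays, against 879, 1371 and 1792 in EGFP+EYFP- arrays. A value of 1.30 in log2 (SE 0.35) had an adjusted p of 0.055 by limma, and it passed in 6 of 18 other settings but in none that left out an array. Aurkb, the kinase of the same complex, had 3005, 3311 and 2500 in EGFP+EYFP+ arrays, against 1717, 1843 and 1386 in EGFP+EYFP- arrays (0.82 in log2, SE 0.27, adjusted p = 0.116 by limma).

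Other genes of mitotic entry than Ccnb2 did not pass. Cdk1, the kinase that drives entry, had 13236, 12578 and 8847 in EGFP+EYFP+ arrays, against 6906, 5008 and 7617 in EGFP+EYFP- arrays (0.83 in log2, SE 0.24, adjusted p = 0.0765 by limma). Foxm1, the transcription factor of G2 genes, had 1039, 965 and 654 in EGFP+EYFP+ arrays, against 519, 419 and 583 in EGFP+EYFP- arrays (0.76 in log2, SE 0.35, adjusted p = 0.291 by limma). Its groups did not overlap. Plk1, a kinase of mitotic entry and spindle assembly, had a log2 fold change of 0.58 (SE 0.43). Aurka, the kinase of centrosomes, and Tpx2, its activator on the spindle, had log2 fold changes of 0.40 and 0.53. The groups overlapped for Plk1, Aurka and Tpx2.

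Of the spindle checkpoint, Bub1, Bub1b, Mad2l1 and Ttk, which hold back anaphase until chromosomes are attached, had log2 fold changes of 0.73, 0.67, 0.50 and 0.81. Bub1 had 2655, 2622 and 3740 in EGFP+EYFP+ arrays, against 1692, 1781 and 1869 in EGFP+EYFP- arrays, with a narrow spread in EGFP+EYFP- cells. None of the 4 passed (limma adjusted p from 0.169 to 0.370), and on the brightest probe sets the groups overlapped for Ttk alone of these 4. Cdc20 and Ube2c, which serve the anaphase-promoting complex, had log2 fold changes of 0.55 and 0.66 with groups that did not overlap. For Cdc20 this was its brightest probe set, of suffix x. The other tested Cdc20 probe sets gave 0.44 and 0.98 with groups that overlapped. Ube2c had 3161, 2835 and 2579 in EGFP+EYFP+ arrays, against 1597, 1744 and 2066 in EGFP+EYFP- arrays. A dimmer Bub1 probe set, below the filter on dim probe sets and so not tested, read 154, 178 and 221 in EGFP+EYFP+ arrays, against 6.08, 49.2 and 27.3 in EGFP+EYFP- arrays. Its log2 fold change of 2.07 was the largest among the member probe sets below the filter. The second Bub1b probe set, which was tested, gave 0.33 with groups that overlapped (limma adjusted p = 0.712 over all probe sets). A Bub1b probe set below the filter had -0.13.

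Motors, centromere and midzone proteins completed the mitotic group. Kif11, the kinesin that separates spindle poles, had 1045, 1464 and 2797 in EGFP+EYFP+ arrays, against 1147, 458 and 905 in EGFP+EYFP- arrays. On this brightest probe set of Kif11 the groups overlapped, and the log2 fold change of 1.03 (SE 0.45) came with a high EGFP+EYFP+ array 3. The next Kif11 probe set read 1369, 1364 and 1522 in EGFP+EYFP+ arrays, against 972.5, 702 and 839 in EGFP+EYFP- arrays, without overlap. It gave 0.75 in log2 (limma adjusted p = 0.288 over all probe sets), and the dimmest Kif11 probe set gave 0.09. Cenpe, a kinesin of kinetochores, and Cenpa, the histone variant of centromeres, had log2 fold changes of 0.72 and 0.50, and Prc1, which bundles midzone microtubules, had 0.58. On the brightest probe sets of these 3, only the groups of Prc1 did not overlap. The second Prc1 probe set gave 0.60 and the second Cenpe probe set 0.11, both with groups that overlapped.

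Mki67, Nusap1 and Ccna2 stood at the low end of the mitotic members. Mki67, the gene of the Ki-67 antigen by which dividing cells are counted, had 11111, 11486 and 16711 in EGFP+EYFP+ arrays, against 12113, 13295 and 11601 in EGFP+EYFP- arrays. EGFP+EYFP+ array 3 was high and the other arrays mixed, with a difference of 0.06 in log2 (SE 0.20, adjusted p = 0.926, limma), and -0.12 without that array. Nusap1, a spindle microtubule protein, had 7342, 7145 and 11218 in EGFP+EYFP+ arrays, against 6311, 8466 and 8839 in EGFP+EYFP- arrays, also with array 3 high, and a log2 fold change of 0.11 (SE 0.24). Both were slightly below 0 with array weights, Mki67 at -0.031 and Nusap1 at -0.0084. Ccna2, the cyclin of S phase and G2, had a log2 fold change of 0.26 (SE 0.21) on its brightest probe set.

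**Figure D3:**
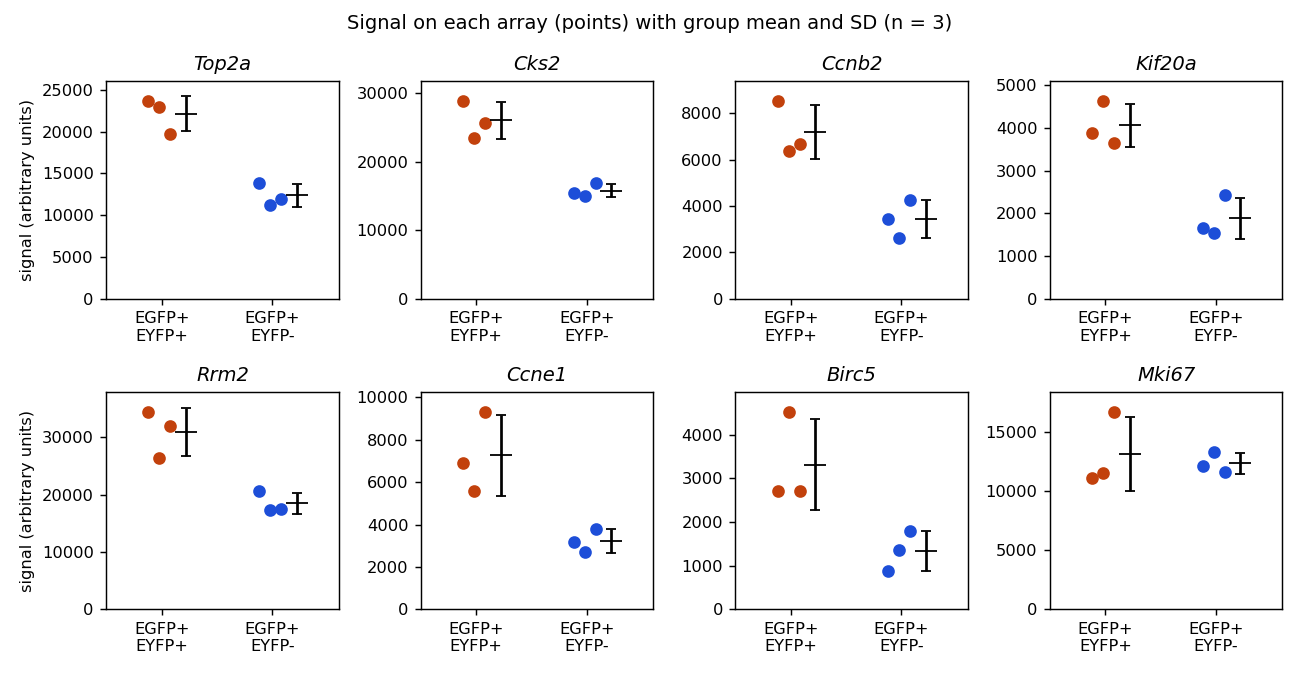
Signal in arbitrary units on each array (points) with the mean and SD of each group (n = 3), EGFP+EYFP+ left and EGFP+EYFP- right, for the 6 members that rose and for Birc5 and Mki67. The groups do not overlap in 7 panels, and the Mki67 panel shows EGFP+EYFP+ values from 11111 to 16711 around EGFP+EYFP- values from 11601 to 13295.

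S phase members held 2 of the 6 genes that rose, among 15 measured (13.3%, against 1.98% of all genes tested), with a median log2 fold change of 0.66. Rrm2 is the cell cycle regulated subunit of ribonucleotide reductase, which makes deoxyribonucleotides. Its signal was 34444, 26315 and 31980 in EGFP+EYFP+ arrays, against 20608, 17334 and 17558 in EGFP+EYFP- arrays. The groups did not overlap, and the log2 fold change, 0.74, had an SE of 0.16 and an adjusted p of 0.0218 by limma. This probe set has suffix x, and the other 2 of Rrm2 gave 0.67 and 1.25 without passing. Rrm1, the large subunit of the same enzyme, had 11862, 16425 and 14951 in EGFP+EYFP+ arrays, against 9542, 9063 and 8503 in EGFP+EYFP- arrays. Its groups did not overlap either, with a difference of 0.66 in log2 (SE 0.19, adjusted p = 0.0716, limma).

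Ccne1, a cyclin E that brings cells into S phase, had 6921, 5572 and 9330 in EGFP+EYFP+ arrays, against 3192, 2689 and 3791 in EGFP+EYFP- arrays (1.15 in log2, SE 0.26, adjusted p = 0.0258 by limma). On its other probe set the values were 959, 784 and 1400 in EGFP+EYFP+ arrays, against 808, 867 and 887 in EGFP+EYFP- arrays, a log2 fold change of 0.25 (adjusted p = 0.840 over all probe sets). The brighter of the 2 has suffix x, so signal of Ccne1 and of other transcripts that its probes match cannot be told apart there. Ccne2, the second cyclin E, had a log2 fold change of 0.92 (SE 0.45) with groups that overlapped.

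The 6 MCM genes encode the helicase that unwinds DNA at replication forks. None passed, and their log2 fold changes ranged from 0.30 (Mcm7) to 0.81 (Mcm2), with Mcm6 at 0.38 and Mcm5 at 0.68. Mcm3 had 8196, 9020 and 7291 in EGFP+EYFP+ arrays, against 4601, 5250 and 4733 in EGFP+EYFP- arrays (0.74 in log2, SE 0.20, adjusted p = 0.0594 by limma). Mcm4 had 24608, 21883 and 25003 in EGFP+EYFP+ arrays, against 14870, 19230 and 14551 in EGFP+EYFP- arrays (0.56 in log2, SE 0.17, adjusted p = 0.0842 by limma). Mcm2 had 8028, 3868 and 4972 in EGFP+EYFP+ arrays, against 2943, 2262 and 4279 in EGFP+EYFP- arrays, with EGFP+EYFP+ array 1 high. On the brightest probe sets, the groups did not overlap for Mcm3 and Mcm4, and overlapped for Mcm2, Mcm5, Mcm6 and Mcm7. On the next probe set of each gene, the groups overlapped for Mcm4 and did not for Mcm6.

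Cdt1 and Cdc6, which load the MCM helicase, differed by 0.53 (SE 0.24) and 0.55 (SE 0.50) in log2, and the groups did not overlap for Cdt1. Cdc6 ranged from 412 to 1982 within EGFP+EYFP- arrays, and without EGFP+EYFP- array 1 its log2 fold change was -0.036. Pcna, the sliding clamp of DNA polymerases, had 25358, 25985 and 19483 in EGFP+EYFP+ arrays, against 13343, 20505 and 18204 in EGFP+EYFP- arrays, a difference of 0.45 in log2 (SE 0.20, adjusted p = 0.272, limma). Gins1, part of the replicative helicase complex, stood at 0.10 in log2 fold change (SE 0.32), and at -0.087 without EGFP+EYFP+ array 1. Tyms, thymidylate synthase, read between 23.9 and 215 on the brightest of its 4 probe sets, close to the filter, and its log2 fold change of 0.73 (SE 0.54) rests on dim signal. The other 3 Tyms probe sets were below the filter.

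Probe sets of the same gene were compared next, since they measure it with different probes. Those with suffix a, s or x can match several transcripts, some also of other genes. Of the 88 member probe sets, 72 were above the filter, and over all 27022 probe sets tested 4 of them rose (those of Top2a, Cks2, Rrm2 and Ccne1) and none fell. Of all probe sets tested 3.42% passed, 1.01% higher and 2.42% lower. All 72 had a fold change above 0, against 52.1% of all probe sets tested. The groups did not overlap, with EGFP+EYFP+ higher, for 30 of the 72, against 8.57% of all. None of the 33 tested probe sets other than a gene's brightest passed in limma, and their median log2 fold change was 0.57. Of these, 12 had an unadjusted limma p under 0.05, but the share of all probe sets with such a p is not given here. Of the 16 member probe sets below the filter, 12 had a fold change above 0.

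Agreement in size varied among the 22 genes with 2 or more tested probe sets, where the median range was 0.35 on the log2 scale. Mcm4 and Prc1 probe sets differed by 0.01 and 0.02. Kif11, Ccna2 and Ccne1 differed most among these genes, by 0.94, 0.91 and 0.90. The second Ccna2 probe set read 5660, 10283 and 5453 in EGFP+EYFP+ arrays, against 2873, 2293 and 4139 in EGFP+EYFP- arrays, a log2 fold change of 1.17 (adjusted p = 0.103 over all probe sets), where the brightest gave 0.26. Top2a has 3 probe sets, of which 1 was above the filter. Averaged over all 3, its log2 fold change was 0.28 (limma adjusted p = 0.793).

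**Figure D4:**
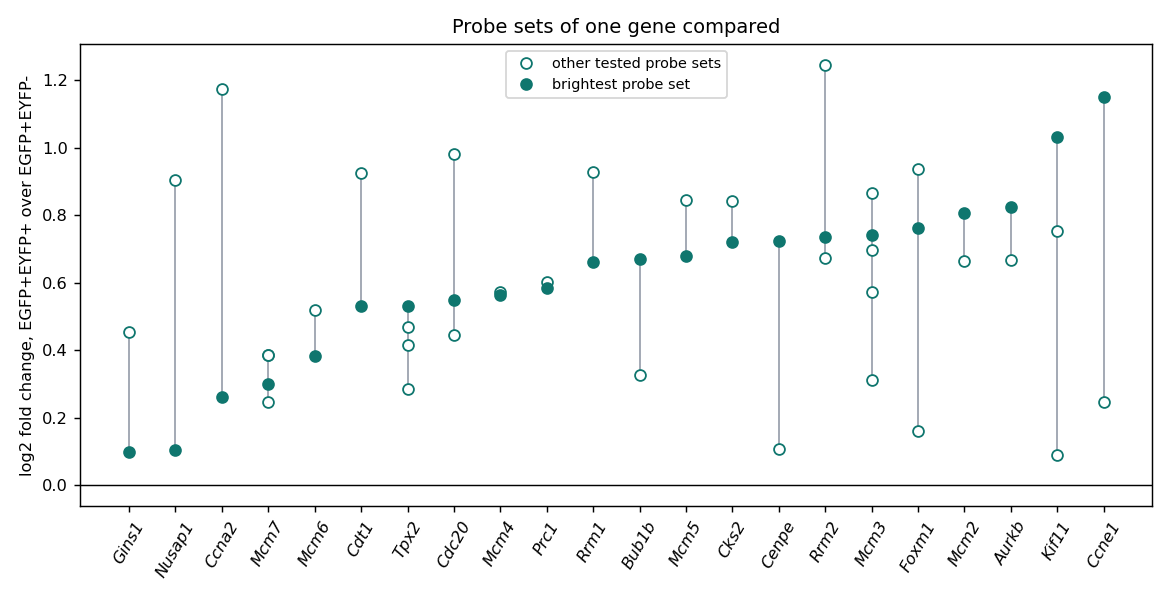
Log2 fold change of EGFP+EYFP+ over EGFP+EYFP- cells for every tested probe set of the 22 members with 2 or more of them, in order of the brightest probe set (filled), with the others open and a line spanning each gene's range. All points lie above 0, and Ccna2, Ccne1 and Kif11 have the longest lines.

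The members were also averaged on each array. The mean deviation of mitotic members from their gene means was 0.43, 0.23 and 0.34 in EGFP+EYFP+ arrays, against -0.30, -0.53 and -0.18 in EGFP+EYFP- arrays (log2 scale). For S phase members it was 0.39, 0.23 and 0.31 in EGFP+EYFP+ arrays, against -0.43, -0.27 and -0.23 in EGFP+EYFP- arrays. EGFP+EYFP+ array 1 was the highest for both phases. The lowest was EGFP+EYFP- array 2 for mitotic and EGFP+EYFP- array 1 for S phase members.

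Further genes of the same pathways were mostly above 0, with few that passed. Of 45 other S phase genes tested, 2 rose (4.44%, against 1.98% of all genes), none fell, 37 were above 0, and the median log2 fold change was 0.35. Rpa1, a subunit of the single-strand DNA binding protein RPA, had 67876, 69603 and 47175 in EGFP+EYFP+ arrays, against 34773, 27336 and 28142 in EGFP+EYFP- arrays (1.02 in log2, SE 0.18, adjusted p = 0.0066 by limma). Slbp, which binds the stem-loop of histone mRNAs, had 11575, 9767 and 18743 in EGFP+EYFP+ arrays, against 5148, 4607 and 7932 in EGFP+EYFP- arrays (1.16 in log2, SE 0.29, adjusted p = 0.0409 by limma). Neither gene's groups overlapped. Of 48 other mitotic genes tested, 1 rose (2.08%), none fell, 43 were above 0, and the median was 0.50. That gene was Pbk, a mitotic kinase, with 11473, 10444 and 12679 in EGFP+EYFP+ arrays, against 5819, 6258 and 6103 in EGFP+EYFP- arrays (0.92 in log2, SE 0.18, adjusted p = 0.0143 by limma). The share that rose among these other mitotic genes was near that of all genes. The probe set of Pbk has suffix s and that of Rpa1 suffix a, so both can match several transcripts.

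Regulators of G1 and inhibitors of the cycle had medians closer to that of all genes, and the difference from the members was not tested. Of 19 G1 cyclins, kinases and E2F factors tested, 1 rose (5.26%, against 1.98% of all genes) and none fell. Of the 19, 13 were above 0, against 51.8% of all genes tested, and the median log2 fold change was 0.17. Cdk6, a G1 kinase, had 7635, 7141 and 10341 in EGFP+EYFP+ arrays, against 2113, 3590 and 3746 in EGFP+EYFP- arrays (1.43 in log2, SE 0.28, adjusted p = 0.0128 by limma). Ccnd1, which encodes cyclin D1 and was picked out after its values were seen, had 3017, 4815 and 3862 in EGFP+EYFP+ arrays, against 7574, 8552 and 6107 in EGFP+EYFP- arrays. All EGFP+EYFP+ values were below the EGFP+EYFP- values, and the difference of -0.93 in log2 (SE 0.25, adjusted p = 0.0549, limma) narrowly missed the threshold. Of 16 inhibitors tested, none passed and the median log2 fold change was 0.12. An unadjusted limma p under 0.05 was reached by 4 of them, against 2364 of all 13464 genes tested, in either direction. These 4 went both ways, with Gadd45a at 1.62, Cdkn1a at 0.92, Gadd45g at 0.67 and Rb1 at -1.19 in log2.

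**Figure D5:**
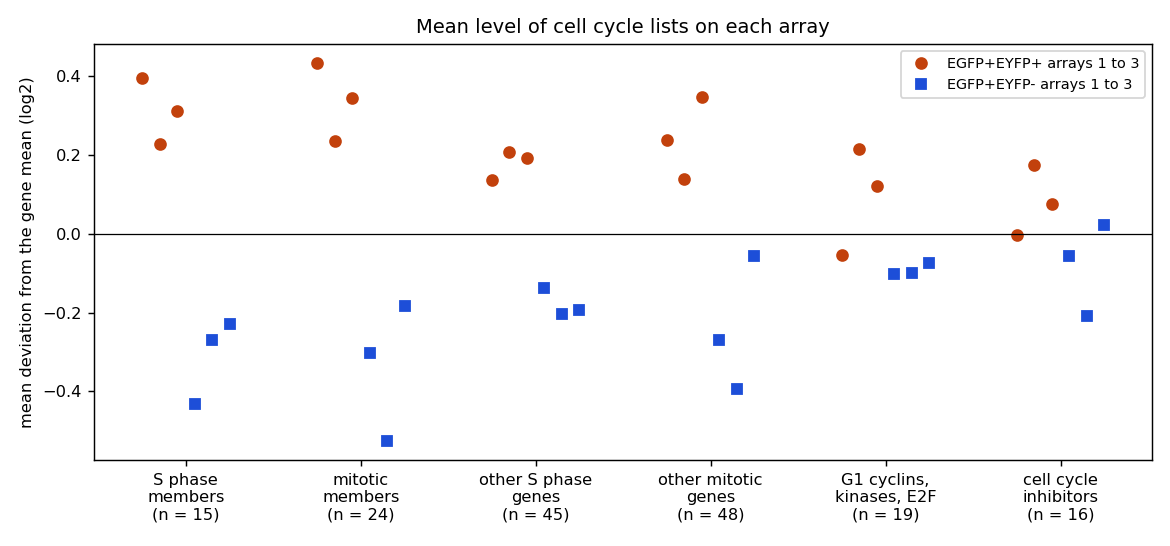
Mean deviation from the gene mean (log2) of each cell cycle list on each array, EGFP+EYFP+ arrays as circles and EGFP+EYFP- arrays as squares, with the number of genes tested under each name. The EGFP+EYFP+ arrays lie above the EGFP+EYFP- arrays for all 4 lists of S phase and mitotic genes and for the G1 list by a small margin, and the groups overlap for the inhibitors.

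Markers of smooth muscle and of other cell types were set beside these results. Leukocyte markers were lower in EGFP+EYFP+ arrays for 19 of 21 markers, with a summed signal of 13321 to 22226 in EGFP+EYFP+ arrays, against 98113 to 138996 in EGFP+EYFP- arrays. Endothelial markers were lower for 15 of 16 (14263 to 21918 in EGFP+EYFP+ arrays, against 47092 to 56638 in EGFP+EYFP- arrays) and urothelial markers for 15 of 15 (5375 to 9521 in EGFP+EYFP+ arrays, against 30605 to 50624 in EGFP+EYFP- arrays). Schwann and nerve markers were lower for 9 of the 11 with a named probe set (22022 to 27483 in EGFP+EYFP+ arrays, against 30149 to 32891 in EGFP+EYFP- arrays). Most of that sum was Ncam1, which ranged from 19139 to 24690 in EGFP+EYFP+ arrays, against 13390 to 19587 in EGFP+EYFP- arrays. Without Ncam1, left out after seeing the values, the other 10 summed to 1657 to 2883 in EGFP+EYFP+ arrays, against 12732 to 17308 in EGFP+EYFP- arrays. Smooth muscle markers had a lower mean for 11 of 11, from 105756 to 147724 in EGFP+EYFP+ arrays, against 293452 to 377107 in EGFP+EYFP- arrays. Acta2, the brightest of them, differed by only -0.07 in log2 with groups that overlapped (limma adjusted p = 0.904). Without Acta2, left out after seeing the values, the sum was 47475 to 76076 in EGFP+EYFP+ arrays, against 241819 to 309410 in EGFP+EYFP- arrays. Csf1r, the brightest leukocyte marker, ranged from 3092 to 8416 in EGFP+EYFP+ arrays, against 26671 to 34468 in EGFP+EYFP- arrays. No marker was at 0 on any array, and 4 leukocyte markers and 1 nerve marker were below the filter on dim genes. The ratio of 3′ to 5′ signal of the Actb control, a sign of RNA length, was 4.66, 2.78 and 8.02 in EGFP+EYFP+ arrays, against 5.97, 5.46 and 3.23 in EGFP+EYFP- arrays, and so overlapped. With this ratio in the model 7 members rose. The same ratio of the Gapdh control was 17.2, 17.2 and 23.9 in EGFP+EYFP+ arrays, against 15.2, 11.8 and 20.6 in EGFP+EYFP- arrays. The groups overlapped, with the highest value in EGFP+EYFP+ cells and the lowest values in EGFP+EYFP- cells, and the part of this ratio in the result was not tested. The part of the other cell types in the result was not tested.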

How the data were processed

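The data come from 6 Affymetrix MOE430 arrays, each hybridised with 1 sample of RNA from sorted cells that had been amplified in 2 rounds, per the labels' protocols. Such amplification starts from the 3′ end, so probe sets far from it can lose signal. The deposited table holds 1 linear signal intensity per probe set. GCOS is the only tool named, per the submitters' processing notes, with no algorithm or scaling target. Trimmed by 2% at both ends, each array averaged 1500.01, which means that these deposited values were already scaled and hide any difference in total RNA. The number of arrays limits the precision.

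Of 45037 probe sets other than 64 controls, 34945 had 1 gene symbol, 932 several and 9160 none listed in the platform annotation. By Entrez identifier, 34741 of those with 1 symbol were found in the RefSeq table (GRCm38.p6), and 0 member symbols changed. Analysis used log2(signal + 25.042), where 25.042 is the 20th percentile of all values, so fold changes of dim genes are understated. No further scaling was applied, as array medians were within 1.36-fold (limit 1.5). A gene stood as its probe set of highest mean and was tested when that mean exceeded 6.82 in log2, the 40th percentile over all probe sets, which kept 13464 of 18193 genes.

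The test was limma's moderated test (version 3.58.1, R 4.3.3, eBayes with trend), EGFP+EYFP+ minus EGFP+EYFP-, two-sided, adjusted by Benjamini-Hochberg across every gene tested, with a threshold of 0.05. A second fit covered all 27022 probe sets above the filter. The fit was tested on simulated data. The members and lists were chosen with earlier results of these data known. All members are named, with every gene of the other cell cycle lists that passed, Actg2, Acta2 and at most the brightest and dimmest marker of a cell type. Ccnd1 and the inhibitors with an unadjusted p under 0.05 are named too. The 3 arrays of each group share replicate numbers across groups, but deviations of same-numbered arrays correlated at 0.19, 0.05 and 0.02 across genes, so the numbers were not taken as pairs.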

Additional observations from a re-analysis of the deposited data

How the results depend on the processing

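The median log2 fold change of the members was above 0 in every setting tried, and no member passed in the lower direction in any of them. Beside the settings given with the main result, 6 members rose with quantile normalization, with the lower offset and without a filter, 7 with the higher offset or the stricter filter, and 4 with probe sets averaged. With the brightest probe set free of suffix a, s or x, 3 members rose, none of S phase (7 at an unadjusted p under 0.05 by limma). Of the 3, Ccnb2 and Cks2 passed on such a probe set, and Kif20a has none and kept its own. With probe sets averaged no S phase member rose (7 unadjusted) and the S phase median was 0.56, as with the higher offset (0.56). With arrays centred on their medians 2 mitotic and 0 S phase members (7 unadjusted), 2 genes of the other lists and 0 member probe sets rose. With no variance trend 0 mitotic and 0 S phase members (13 and 5 unadjusted) and 0 probe sets rose, and 1 gene of the other lists. None of these unadjusted counts has the share over all genes beside it. With array weights 11 members rose and 1345 genes passed (435 higher, 910 lower), with 4 S phase and 7 mitotic members, 9 member probe sets and 10 genes of the other lists higher and 2 lower. Without a filter 1 member probe set rose, and with the Actb ratio, a setting chosen after seeing the data, 7. In the other lists 2 genes rose with probe sets averaged, and 1 fell with the higher offset, the stricter filter or the replicate block. With the replicate number as a block 1014 genes passed and 6 members rose, 5 of them shared with the fit without it.

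When each array was left out in turn, the genes passing numbered 466 to 1084 (160 to 348 higher, 303 to 736 lower). Members that rose numbered 0 to 7, those of S phase 0 to 2 and of mitosis 0 to 5, and member probe sets 0 to 4. The S phase median ranged from 0.54 to 0.66 and the mitotic from 0.59 to 0.76. In the other lists 2 to 6 rose and 0 to 1 fell. Log2 fold changes that crossed 0 ranged from -0.12 to 0.17 for Mki67, from -0.10 to 0.22 for Nusap1 (-0.05 without EGFP+EYFP- array 1), from -0.087 to 0.22 for Gins1 and from -0.036 to 1.06 for Cdc6. With array weights Mki67 was at -0.031 and Nusap1 at -0.0084. The cause of these changes was not tested.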
